A study of Mus musculus with 6 samples.

Results

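The genes described here are the glycosyltransferases that build, extend and cap mucin-type glycans and their close relatives. They were taken as every row of the deposited table whose mouse symbol starts with 1 of 11 prefixes (B3galt, B3gnt, B4galt, B4galnt, Fut, Galnt, Gcnt, St3gal, St6gal, St6galnac or St8sia). The rule found 79 of 23725 rows, and 53 of them reached 10 normalized reads in at least 3 of the 6 libraries and were tested. Of the 26 others, 7 had no read in any library and 19 had some. The prefixes are wider than mucins: they also take in enzymes of N-glycans, glycolipids and proteoglycans, the pseudogene Fut4-ps1 and St8sia3os, a transcript antisense to an enzyme gene.

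RNA was taken from epithelial cells of the colon that had been enriched by Percoll centrifugation from C57BL/6J mice, with 3 libraries in each of 2 groups. The knockout group is labelled B6-Cg-Nr3c1-Vil-Cre/ERT2 (Nr3c1IEC-/-), in which a tamoxifen-activated Cre recombinase under the villin promoter removes Nr3c1, the glucocorticoid receptor gene, from intestinal epithelium. The controls are labelled wild type, and the labels do not say whether they carried the Cre transgene, so if they did not, an effect of Cre and one of receptor loss cannot be told apart. Tamoxifen was injected on 5 consecutive days into animals of both groups, and cells were collected 7 days after the first injection. The labels give no age. Nothing in them says that each library came from a different animal, so p-values measure the spread between these libraries.

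Mucin-type glycans start when a Galnt enzyme attaches N-acetylgalactosamine (GalNAc) to serine or threonine of a protein such as the goblet cell mucin Muc2. Other enzymes then form a core, extend it with galactose and N-acetylglucosamine (GlcNAc), branch it, and end the chains with fucose, sialic acid or a further GalNAc. In the colon these sugars make up most of the mass of the secreted mucins and give bacteria both food and binding sites.

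The libraries held 10089313 to 12030844 recovered reads. The 10 epithelial markers were all detected in every library, with Epcam at 21155 ± 828 and 20267 ± 1843 normalized reads (mean ± SD, n = 3 in each group, as for all pairs of means below). Of these 10, Vil1 rose (log2 change 0.59 ± 0.13 SE, adjusted p = 0.0134), Cdx1 and Cdx2 fell (log2 change -0.78 ± 0.19 SE, adjusted p = 0.0179, and log2 change -0.65 ± 0.17 SE, adjusted p = 0.0275), and 7 did not pass. The share called was thus 30.0%, against 30.5% of all tested genes. Nr3c1 itself was measured at 1119.8, 967 and 197 normalized reads in wild-type and 145, 123 and 175 in knockout libraries (log2 change -2.03 ± 0.60 SE, adjusted p = 0.0372). Its call was lost without wild type replicate 1 or 2 (adjusted p = 0.121 and 0.125) and without knockout replicate 1, 2 or 3 (0.0631, 0.0816 and 0.0733, range over alternatives 0.000731 to 0.125). The library labelled wild type replicate 3 was thus near the knockout level of the targeted gene, which goes against its label. The comparisons below include it unless stated. Of 24 immune markers 17 were tested and 13 rose (76.5% of those tested). Their summed level was 792 to 1525 in the wild-type and 3913 to 9381 in the knockout libraries. Of 10 markers of stratified epithelium 6 were tested and 3 rose, with sums of 46.9 to 92.9 and 589 to 3992 and Krtdap at 0 in all libraries. Of 12 stromal markers 7 were tested and 1 rose (14.3%), and their sums overlapped (560.4 to 1098 and 795 to 2634). Of 13 colonocyte markers, all tested, 4 fell and 2 rose (46.2%). Their sums were 263964 to 306424 in the wild-type and 156898 to 218153 in the knockout libraries. Much of these sums was Car1, picked out after the values were seen, which went from 143867 ± 31220 to 39006 ± 24048. The mean log2 level of the 13 colonocyte markers overlapped between groups (12.654 to 13.025 and 12.216 to 13.091). Of 19 goblet cell markers 5 fell and 1 rose (31.6%, against 30.5% of all tested genes). Their sums were 98890 to 103085 and 54974 to 87410, and without Muc2, a sum added after the values were seen, they overlapped (69531 to 80790.3 and 46791 to 77476). The part of these cell types in the results below was not tested. In bulk RNA, fewer cells of a type and less RNA per cell cannot be told apart.

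Knockout libraries differed from wild-type libraries at 29 of the 53 tested glycosyltransferase genes. Of these, 17 were higher and 12 lower in the knockout (limma, Benjamini-Hochberg adjusted p under 0.05 over 12837 genes, as for every adjusted p below unless another tool is named). The share of all tested genes past the same threshold was 30.5%, with 15.0% higher and 15.4% lower. The median log2 change was 0.04 for the 53 genes and 0.01 for all tested genes, and the median size of the change regardless of sign was 0.65 and 0.38. A change of at least 2-fold was seen in 8 raised and 4 lowered members, against 14.5% of all tested genes in either direction. The raised genes were the ganglioside enzyme gene St8sia1, the branching genes Gcnt2 and Gcnt1, the chain-extending genes B3galt5, B4galt1 and B3gnt5, the initiating gene Galnt3 and the fucosyltransferase gene Fut2. The lowered genes were B3gnt6, St6gal1, B4galnt2 and St6galnac2. Changes are given on the log2(normalized reads + 1) scale as knockout minus wild type, and on this scale the change of a low gene is understated. The 3 values of each group did not overlap in 33 of the 53 members, against 50.7% of all tested genes, and in 28 of the 29 called members. Called members were selected by a test of these same values. A lack of overlap in them, here and below, is therefore a description and no separate support.

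**Figure D1:**
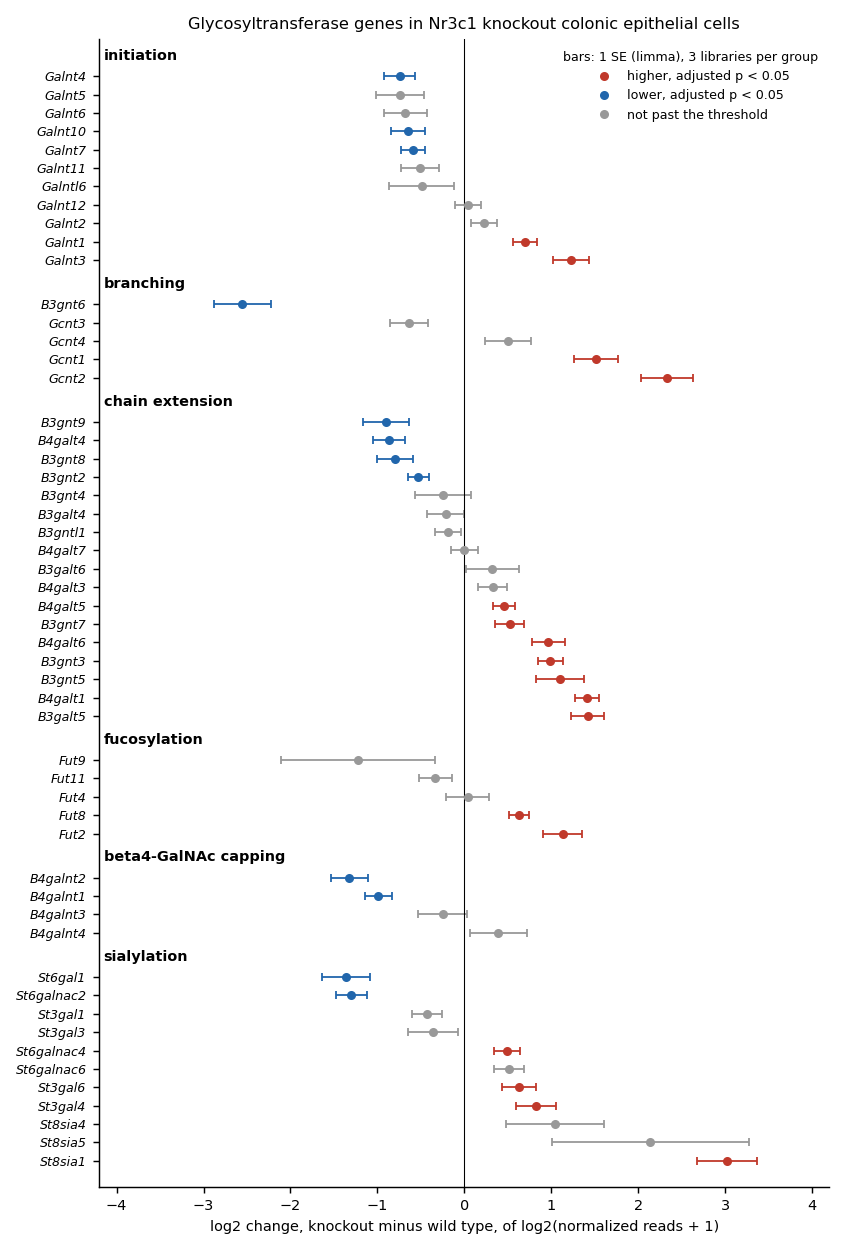
Change of each of the 53 tested glycosyltransferase genes, grouped by the step its enzyme takes in glycan synthesis. The horizontal axis is the log2 change, knockout minus wild type, and bars are 1 SE with 3 libraries per group. Red marks 17 genes higher and blue 12 genes lower at a limma adjusted p under 0.05, and B3gnt6 (-2.55) and St8sia1 (3.02) lie at the ends of the called range. St8sia1 passed the value filter through the knockout libraries only.

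**Figure D2:**
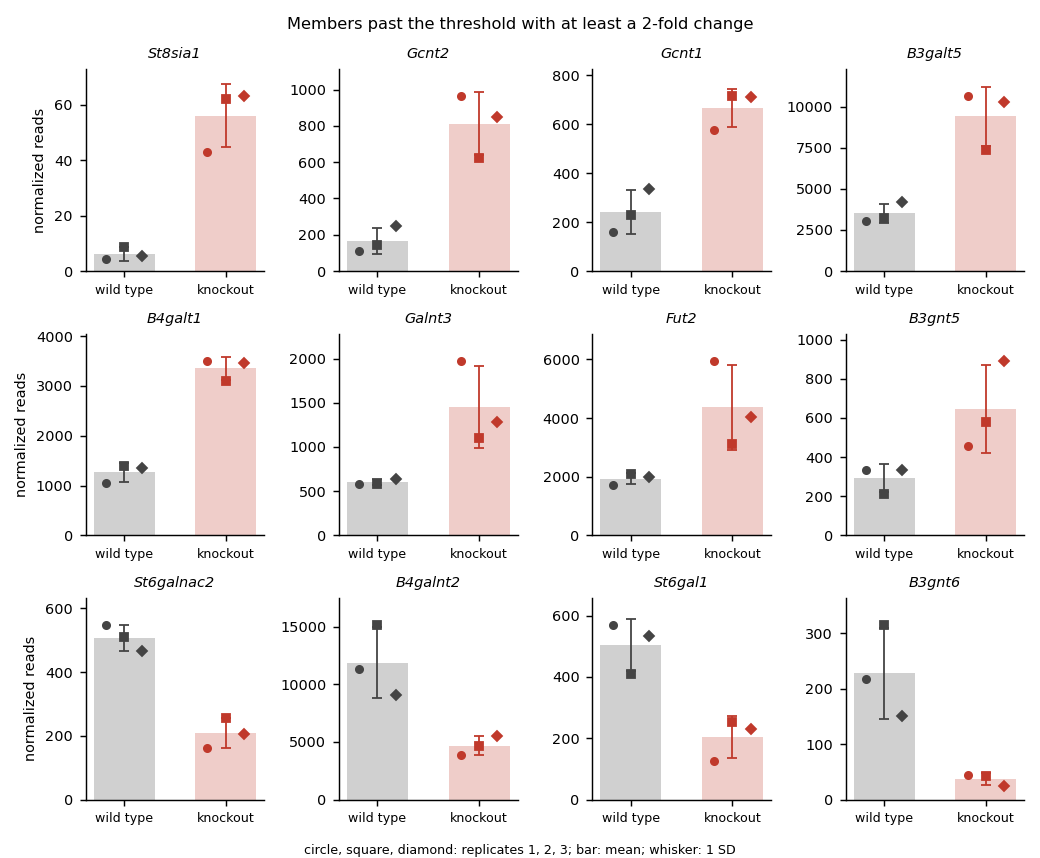
Normalized reads in each library for the 12 members past the threshold with at least a 2-fold change. Circles, squares and diamonds are replicates 1, 2 and 3, bars are means and whiskers 1 SD, and each vertical axis starts at 0. In none of the 12 panels do the wild-type and knockout libraries overlap.

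Promoter sequence is shown for St8sia1 and Gcnt2, the called members with the largest rises, and for B4galnt2, a lowered member with 1 listed start site, to give the DNA just before their start sites. No window was matched for B3gnt6. RefSeq windows of GRCm38.p6, the assembly behind mm10, were found for 39 of the 53 genes, with 54 start sites. Each window below is the 250 bases before a start site that RefSeq lists, which need not be the gene's outermost, 5′ to 3′ on the gene's strand. Capitals mark TGTTCT or its reverse complement AGAACA, the 6-base core that the glucocorticoid receptor binds, and the STAT motif TTCNNNGAA. St8sia1 (chr6:142964453-142964702, minus strand) held 1 receptor core, the first start site of Gcnt2 (chr13:40859518-40859767, plus strand) also held 1, its second (chr13:40886508-40886757, plus strand) held 1 STAT motif, and B4galnt2 (chr11:95914872-95915121, minus strand) held neither. The third start site of Gcnt2 (chr13:40917384-40917633, plus strand), whose window is not printed, also held neither.
St8sia1: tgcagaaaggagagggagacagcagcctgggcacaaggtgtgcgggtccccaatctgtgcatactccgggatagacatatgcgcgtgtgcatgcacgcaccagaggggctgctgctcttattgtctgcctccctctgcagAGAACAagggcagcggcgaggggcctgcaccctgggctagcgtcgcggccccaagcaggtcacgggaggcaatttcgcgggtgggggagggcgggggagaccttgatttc
Gcnt2 first start: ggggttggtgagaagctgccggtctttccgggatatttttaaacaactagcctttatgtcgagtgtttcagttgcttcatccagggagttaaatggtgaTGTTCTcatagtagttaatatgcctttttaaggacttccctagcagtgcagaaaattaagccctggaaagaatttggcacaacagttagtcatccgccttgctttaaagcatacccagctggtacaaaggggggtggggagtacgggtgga
Gcnt2 second start: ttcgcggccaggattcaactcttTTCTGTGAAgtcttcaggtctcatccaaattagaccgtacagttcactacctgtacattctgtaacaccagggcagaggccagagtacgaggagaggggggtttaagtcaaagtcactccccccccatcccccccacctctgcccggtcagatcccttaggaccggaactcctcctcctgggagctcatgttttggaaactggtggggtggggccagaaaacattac
B4galnt2: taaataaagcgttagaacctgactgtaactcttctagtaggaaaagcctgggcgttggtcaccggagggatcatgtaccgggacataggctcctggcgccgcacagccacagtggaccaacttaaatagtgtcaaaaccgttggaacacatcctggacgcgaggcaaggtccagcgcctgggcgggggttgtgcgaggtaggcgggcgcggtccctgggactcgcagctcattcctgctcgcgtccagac
On both strands, the full response element (AGAACA, 3 bases of any kind, then TGTTCT), which contains 2 such cores, was in 0 of the 54 member windows and in 3 of all 32851 windows. The core was in 10 member windows (18.5%, against 16.1% of all windows) and the STAT motif in 5 (9.26%, against 7.02%). These are matches of letters in a short window. No match says only that the letters are not there. The windows of St6gal1 and of the first 2 starts of Gcnt1 held none of the 3 motifs, and the third start of Gcnt1 held 1 core.

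The initiating enzymes moved in both directions. Of 11 tested Galnt genes 2 rose and 3 fell (45.5% called, against 30.5% of all tested genes). Galnt3 (Entrez 14425, chromosome 2, 66082766 to 66125056), whose enzyme also glycosylates the hormone FGF23, was measured at 584, 579.9 and 639 normalized reads in wild-type and 1977, 1097 and 1280.2 in knockout libraries (log2 change 1.23 ± 0.21 SE, adjusted p = 0.00539). The knockout values of Galnt3 all lay above the highest wild-type value, and the library of knockout replicate 1 was the highest. Galnt1, a widely expressed initiating enzyme gene, had 971, 897 and 968 normalized reads in wild-type and 1859, 1318 and 1479 in knockout libraries (log2 change 0.70 ± 0.14 SE, adjusted p = 0.00959). The raised genes Galnt3 and Galnt1 kept the call under every alternative run.

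Galnt4, Galnt7 and Galnt10 fell. Galnt4 went from 2354 ± 444 to 1401 ± 218 normalized reads (log2 change -0.74 ± 0.18 SE, adjusted p = 0.0189), Galnt7 from 1918 ± 75.4 to 1284 ± 213 (log2 change -0.59 ± 0.14 SE, adjusted p = 0.017) and Galnt10 from 1754 ± 182 to 1139 ± 285 (log2 change -0.65 ± 0.20 SE, adjusted p = 0.0404), with no overlap between groups. Of the 6 genes that did not pass, 3 had lower means without overlap between groups, which was also seen, in either direction, in 50.7% of all tested genes. These were Galnt11 (147 ± 22.4 and 104 ± 23.8, adjusted p = 0.11), Galnt5 (210.2 ± 19.0 and 132 ± 47.0, adjusted p = 0.0812) and Galnt6 (1806 ± 302 and 1159 ± 354, adjusted p = 0.07, 0.0412 with DESeq2, which passes, range over alternatives 0.0412 to 0.205). Galnt12, an enzyme gene characteristic of colon, had 1242, 1301 and 925 normalized reads in wild-type and 1136, 1128 and 1274 in knockout libraries (adjusted p = 0.841), and its groups overlapped. Galnt2 and Galntl6 did not pass either. The calls of Galnt4 and Galnt7 were lost without wild type replicate 1 (adjusted p = 0.0778 and 0.0673) or wild type replicate 2 (0.0755 and 0.0663), with ranges over the alternatives of 0.0015 to 0.0778 and 0.00288 to 0.0673. That of Galnt10 was lost when any 1 of the wild-type libraries was left out, in the order of their replicate numbers (adjusted p = 0.117, 0.131 and 0.0563, range 0.0173 to 0.131).

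Divided by exon length, which allows levels of different genes to be set side by side, the summed level of the 11 Galnt genes was 2722 normalized reads per kilobase in the wild-type and 2472 in the knockout libraries on average. Galnt12 gave the largest share in every library but wild type replicate 3 and knockout replicate 1, with 19.2, 19.3 and 16.9% in the wild-type and 20.8, 20.2 and 21.5% in the knockout libraries. The share of Galnt3 was 5.30, 5.07 and 6.89% in the wild-type and 21.3, 11.6 and 12.7% in the knockout libraries. For Galnt4 the shares were 18.2, 17.3 and 15.2% and 9.46, 12.3 and 11.5%. The knockout libraries thus held a larger part of Galnt3 and a smaller part of Galnt4 in this sum, without overlap between groups and with no separate test.

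**Figure D3:**
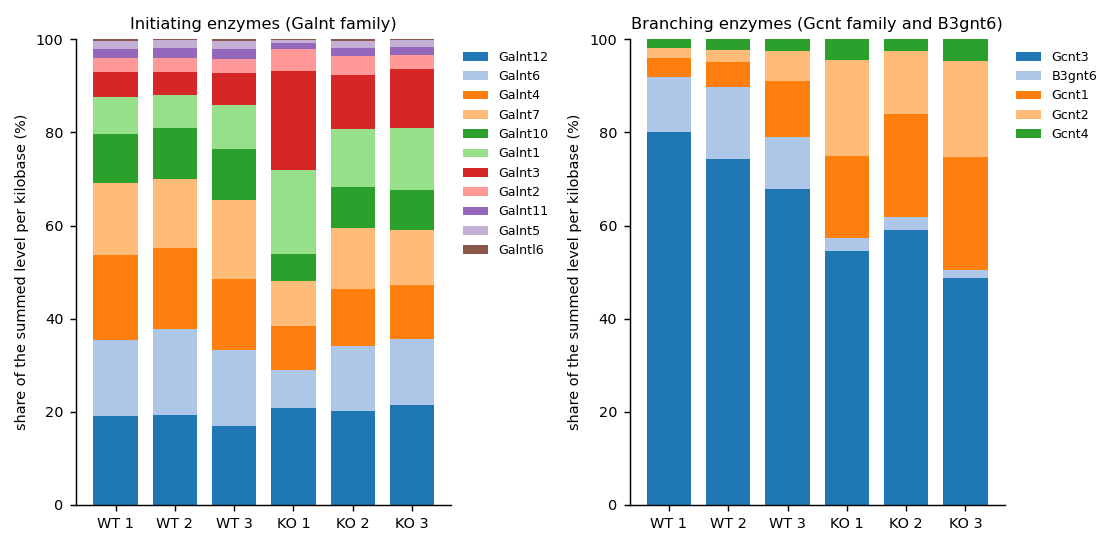
Share of each gene in the summed level per kilobase of exon, by library, for the 11 tested Galnt genes (left) and the 5 tested branching genes (right). WT is wild type and KO knockout, numbered by replicate. Galnt3 and Galnt1 take larger shares in the 3 knockout libraries, as do Gcnt1 and Gcnt2, while the share of B3gnt6 is smaller.

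Among the enzymes that set core type and branching, Gcnt2 and Gcnt1 rose and B3gnt6 fell (60.0% of 5 tested genes called, against 30.5% of all tested genes). B3gnt6 (Entrez 272411, chromosome 7, 98192415 to 98199475), the core 3 synthase that adds GlcNAc to the first sugar, was measured at 217, 315 and 151 normalized reads in wild-type and 45.1, 42.4 and 24.8 in knockout libraries (log2 change -2.55 ± 0.33 SE, adjusted p = 0.00209). Every knockout library was below the lowest wild-type library. Gcnt2 (Entrez 14538, chromosome 13, 40859768 to 40960892), which puts branches on long lactosamine chains (I antigen), had 110.4, 145 and 247 normalized reads in wild-type and 962, 622 and 849 in knockout libraries (log2 change 2.33 ± 0.30 SE, adjusted p = 0.00206). Gcnt1 (Entrez 14537, chromosome 19, 17326141 to 17372844), a core 2 branching enzyme, had 159, 229.8 and 336 normalized reads in wild-type and 577, 713 and 709 in knockout libraries (log2 change 1.52 ± 0.25 SE, adjusted p = 0.00535). For both, the library labelled wild type replicate 3 was the highest of its group and still below every knockout library.

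Gcnt3, the mucin-producing tissues' own core 2 and core 4 enzyme, did not pass the threshold. It was at 2702, 2764 and 1661 normalized reads in wild-type and 1579, 1680.4 and 1249 in knockout libraries, so that only the library labelled wild type replicate 3 overlapped with the knockout (log2 change -0.63 ± 0.22 SE, adjusted p = 0.0583). It was called lower without that library (adjusted p = 0.0113) and with quantile normalization, library weights, edgeR and DESeq2 (0.0465, 0.0361, 0.0483 and 0.0181, range over alternatives 0.0113 to 0.183). Gcnt4, another core 2 enzyme gene, was at 85.3 ± 16.0 and 124 ± 36.1 (adjusted p = 0.177). It was called higher without knockout replicate 2 (0.0408, range 0.0408 to 0.393). On the scale of levels per kilobase Gcnt3 was the most abundant of the 5 tested genes in every library. The ratio of Gcnt1 to Gcnt3 per kilobase was 0.0518, 0.073 and 0.178 in the wild-type and 0.321, 0.373 and 0.499 in the knockout libraries, and that of B3gnt6 to C1galt1, the core 1 synthase, was 0.724, 1.06 and 0.427 and 0.0785, 0.0923 and 0.0497. Neither ratio overlapped between groups, and neither was tested on its own.

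Chain extension had the most changes, with 7 of 17 tested genes higher and 4 lower (64.7% called, against 30.5% of all tested genes). B4galt1 (Entrez 14595, chromosome 4, 40804602 to 40853984), which adds galactose to GlcNAc on many glycans, had 1052, 1402 and 1351 normalized reads in wild-type and 3508, 3095 and 3451 in knockout libraries (log2 change 1.41 ± 0.14 SE, adjusted p = 0.000763), the smallest adjusted p among the members. B3galt5 (Entrez 93961, chromosome 16, 96235801 to 96319859), which makes type 1 chains, in humans the carriers of Lewis a and Lewis b antigens, was at 3072, 3254 and 4191 normalized reads in wild-type and 10615, 7357 and 10250.4 in knockout libraries (log2 change 1.42 ± 0.19 SE, adjusted p = 0.00233). B3gnt3, which extends core 1, went from 2263 ± 308 to 4492 ± 555 (log2 change 0.99 ± 0.14 SE, adjusted p = 0.0033). In B4galt1, B3galt5 and B3gnt3 all knockout libraries lay above all wild-type libraries, and the calls held under every alternative.

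B3gnt5 (Entrez 108105, chromosome 16, 19760192 to 19772760), which starts the lacto-series glycolipids, was at 335, 212 and 336 normalized reads in wild-type and 458, 582 and 893 in knockout libraries (log2 change 1.102 ± 0.27 SE, adjusted p = 0.0213). The lactosylceramide synthase genes B4galt6 and B4galt5 rose as well, from 562 ± 90.3 to 1105 ± 254 (log2 change 0.96 ± 0.19 SE, adjusted p = 0.00927) and from 524 ± 62.1 to 717 ± 54.3 (log2 change 0.46 ± 0.12 SE, adjusted p = 0.0284). B3gnt7, a lactosamine-extending enzyme gene of keratan sulfate, went from 1625 ± 299 to 2326 ± 366 (log2 change 0.52 ± 0.17 SE, adjusted p = 0.0481), close to the threshold. Raised genes of this step thus included glycolipid enzymes beside those of O-glycans.

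The 4 lowered extension genes all changed by less than 2-fold. B4galt4, which acts on sulfated GlcNAc, went from 589 ± 114 to 321 ± 50.6 (log2 change -0.87 ± 0.18 SE, adjusted p = 0.0111). B3gnt2, the main lactosamine-extending enzyme, went from 813 ± 75.8 to 564 ± 53.3 (log2 change -0.53 ± 0.12 SE, adjusted p = 0.0162), and its partner B3gnt8 from 321 ± 48.1 to 187 ± 50.5 (log2 change -0.80 ± 0.21 SE, adjusted p = 0.0247). B3gnt9 went from 76.1 ± 23.5 to 39.0 ± 2.73 (log2 change -0.90 ± 0.26 SE, adjusted p = 0.0371). Libraries were not strand-specific, and 16.5% of the exon length of B3gnt9 overlaps the opposite-strand gene D230025D16Rik, which had 161 ± 21.9 and 142 ± 17.6, while 73.6% of B3gnt2 is shared with the same-strand model Gm28048 and 12.4% of B3gnt7 overlaps the opposite-strand model Gm28626. The 6 genes of this step that did not pass were B3gnt4, B3gntl1, B3galt4, B3galt6, B4galt3 and B4galt7, the last a proteoglycan linker enzyme like B3galt6.

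Several of these calls depended on single libraries. Without wild type replicate 1 the adjusted p was 0.0632 for B3gnt2, 0.156 for B3gnt7, 0.0665 for B3gnt8, 0.116 for B3gnt9, 0.051 for B4galt4 and 0.107 for B4galt5. Without wild type replicate 2 it was 0.072 for B3gnt5, 0.159 for B3gnt7, 0.0932 for B3gnt8, 0.127 for B3gnt9 and 0.107 for B4galt5. For B3gnt2 it was 0.0523 when the library labelled wild type replicate 3 was left out. Leaving out knockout replicate 1 gave 0.0506 for B3gnt8 and 0.0725 for B3gnt9, leaving out knockout replicate 2 gave 0.0746 for B3gnt7, 0.0765 for B3gnt9 and 0.0728 for B4galt5, and leaving out knockout replicate 3 gave 0.12 for B3gnt7, 0.0704 for B3gnt8 and 0.0671 for B3gnt9. B3gnt7 also lost the call with TMM scaling, edgeR, no filter and quantile normalization (0.0523, 0.0592, 0.0533 and 0.0756), and B3gnt9 with no filter (0.0509). The ranges over alternatives were 0.00395 to 0.0632 for B3gnt2, 0.000778 to 0.072 for B3gnt5, 0.0214 to 0.159 for B3gnt7, 0.00695 to 0.0932 for B3gnt8, 0.0164 to 0.127 for B3gnt9, 0.00035 to 0.051 for B4galt4 and 0.0166 to 0.107 for B4galt5.

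Of 5 tested fucosyltransferase genes 2 rose and none fell (40.0% called, against 30.5% of all tested genes). Fut2 (Entrez 14344, chromosome 7, 45648591 to 45666394), the secretor enzyme that makes the H antigen of gut mucus, was at 1726, 2083 and 1983 normalized reads in wild-type and 5957, 3117 and 4031 in knockout libraries (log2 change 1.13 ± 0.22 SE, adjusted p = 0.00937). Knockout replicate 1 stood highest, and the lowest knockout library was above the highest wild-type library. Fut8, which adds core fucose to N-glycans, went from 948 ± 38.1 to 1473 ± 157 (log2 change 0.63 ± 0.11 SE, adjusted p = 0.0066). Both calls held under every alternative. Fut2 was the most abundant of the 5 per kilobase, at 653 normalized reads per kilobase in the wild-type and 1478 in the knockout group.

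Fut4, Fut9 and Fut11 did not pass. Fut4, an alpha-1,3-fucosyltransferase gene, had 447, 480.1 and 443 normalized reads in wild-type and 303, 575 and 591 in knockout libraries (adjusted p = 0.915), with knockout replicate 1 below and the other 2 knockout libraries above the wild type. Without knockout replicate 1 it was called higher (adjusted p = 0.0499, range 0.0499 to 0.971). Fut9, which makes Lewis x, had 38.2, 29.3 and 41.0 normalized reads in wild-type and 2.10, 35.2 and 34.4 in knockout libraries (adjusted p = 0.317), so that knockout replicate 1 alone was low. Fut11 was at 65.3 ± 8.85 and 51.2 ± 1.02 (adjusted p = 0.205), lower without overlap.

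Of 4 tested genes for enzymes that cap chains with a further GalNAc, 2 fell and none rose. B4galnt2 (Entrez 14422, chromosome 11, 95863559 to 95914960), the enzyme of the Sda antigen in colon mucus, was at 11359, 15147 and 9103 normalized reads in wild-type and 3871, 4674 and 5512 in knockout libraries (log2 change -1.32 ± 0.21 SE, adjusted p = 0.0047). B4galnt1, the synthase of gangliosides GM2 and GD2, went from 1948 ± 347 to 975 ± 111 (log2 change -0.99 ± 0.16 SE, adjusted p = 0.00449). The knockout values of both lay below all wild-type values, and both calls held under every alternative. Of the exon length of B4galnt2 15.3% overlaps the opposite-strand model Gm11534. Of B4galnt1 29.9% of the exon length overlaps the opposite-strand gene Slc26a10, which was at 11.7 and 8.14 normalized reads on average. B4galnt3, at 374 ± 53.8 and 329 ± 119, and B4galnt4, at 40.7 ± 8.15 and 56.1 ± 24.1, did not pass (adjusted p = 0.522 and 0.377). Per kilobase B4galnt2 was the most abundant of the 53 tested glycosyltransferase genes in the wild type, at 6893, and in the knockout its level of 2721 was below those of St6galnac6 (3393) and St3gal4 (3129).

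Sialyltransferase genes moved both ways, with 4 of 11 tested raised and 2 lowered (54.5% called, against 30.5% of all tested genes). The 2 lowered genes encode enzymes of alpha-2,6 linkages. St6gal1 (Entrez 20440, chromosome 16, 23224729 to 23360350), which caps N-glycans, was at 570.0, 409.7 and 535 normalized reads in wild-type and 125, 254 and 230.1 in knockout libraries (log2 change -1.36 ± 0.27 SE, adjusted p = 0.00978). St6galnac2 (Entrez 20446, chromosome 11, 116676703 to 116695782), which puts sialic acid on the first GalNAc of O-glycans, was at 548, 508 and 464 normalized reads in wild-type and 162, 256 and 206 in knockout libraries (log2 change -1.30 ± 0.18 SE, adjusted p = 0.00266). In both, all knockout libraries were below all wild-type libraries, and the calls held under every alternative. Of the exon length of St6galnac2 13.6% overlaps the opposite-strand model 1810032O08Rik. St6galnac4, another alpha-2,6 enzyme gene, went the other way, from 226 ± 28.1 to 319 ± 42.6 (log2 change 0.49 ± 0.15 SE, adjusted p = 0.0453).

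St8sia1 (Entrez 20449, chromosome 6, 142821541 to 142989528), the synthase of ganglioside GD3, had the largest rise of the called members but low values, at 4.25, 8.80 and 5.46 normalized reads in wild-type and 43.0, 62.1 and 63.0 in knockout libraries (log2 change 3.02 ± 0.34 SE, adjusted p = 0.00138). It reached the minimum of 10 in the knockout libraries only, so its presence among the tested genes required a difference. Its recovered reads summed to 19 in the wild type and 167 in the knockout. St3gal4 and St3gal6, which add alpha-2,3-linked sialic acid to lactosamine, rose. St3gal4 had 3032, 3026 and 5469.8 normalized reads in wild-type and 6256, 6236 and 7175 in knockout libraries (log2 change 0.83 ± 0.23 SE, adjusted p = 0.0321), with the library labelled wild type replicate 3 nearest to the knockout. St3gal6 had 556, 489.9 and 757 normalized reads in wild-type and 741, 1085 and 948 in knockout libraries (log2 change 0.63 ± 0.20 SE, adjusted p = 0.0471), and its groups overlapped at the same library. Of the exon length of St3gal6 36.3% overlaps the opposite-strand gene Dcbld2, which was at 33.3 and 59.4.

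St6galnac6, which acts on gangliosides and on type 1 chains, missed the threshold with 5433, 7175 and 7495 normalized reads in wild-type and 8147, 10431 and 10026 in knockout libraries (log2 change 0.51 ± 0.17 SE, adjusted p = 0.054), although its groups did not overlap. It was called higher with library weights, DESeq2 and without knockout replicate 1 (adjusted p = 0.0255, 0.0192 and 0.0335, range 0.0192 to 0.18). St6galnac4 lies just before it on chromosome 2, ending at 32599696 where St6galnac6 starts at 32599709. St3gal1, a core 1 capping enzyme gene, was at 312 ± 42.1 and 232 ± 43.0 and St3gal3, which acts on type 1 chains, at 807 ± 156 and 659 ± 287 (adjusted p = 0.0945 and 0.364). Without knockout replicate 2 both were called lower (0.0438 and 0.0351, ranges 0.0438 to 0.26 and 0.0351 to 0.758). The polysialyltransferase gene St8sia4 had 3.18, 2.93 and 10.02 normalized reads in wild-type and 16.8, 6.21 and 11.5 in knockout libraries and the ganglioside enzyme gene St8sia5 17.0, 3.91 and 18.2 normalized reads in wild-type and 7.34, 231 and 74.5 in knockout libraries (adjusted p = 0.189 and 0.182). St8sia5 was called higher with library weights and without knockout replicate 1 (0.0476 and 0.0112, range 0.0112 to 0.447).

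Calls of this step also depended on single libraries. When wild type replicate 1 or 2 was left out the adjusted p was 0.115 and 0.116 for St3gal4, 0.14 and 0.154 for St3gal6 and 0.0692 and 0.119 for St6galnac4. When knockout replicate 2 or 3 was left out it was 0.0537 and 0.0875 for St3gal4 and 0.115 and 0.109 for St3gal6. St6galnac4 lost the call without knockout replicate 1, without knockout replicate 2 and when the library labelled wild type replicate 3 was left out (0.0671, 0.119 and 0.122) and with no filter (0.0522). Quantile normalization ended the calls of St3gal4 and St3gal6 (0.0601 and 0.0634), and edgeR that of St3gal6 (0.052). The ranges over alternatives were 0.00342 to 0.116 for St3gal4, 0.0168 to 0.154 for St3gal6 and 0.0317 to 0.122 for St6galnac4.

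Among the members under the filter, St3gal5, B3galt2 and Galnt17 had the most reads in the wild type. St3gal5, the GM3 synthase that starts the gangliosides, was at 108, 162 and 7.29 normalized reads in wild-type and 9.43, 3.10 and 3.82 in knockout libraries. The libraries of wild type replicates 1 and 2 were thus high, and the library labelled wild type replicate 3 lay among the knockout libraries. B3galt2, a type 1 chain galactosyltransferase gene, was at 25.5, 28.4 and 2.73 normalized reads in wild-type and 5.24, 5.17 and 5.73 in knockout libraries, again with that library below the knockout libraries. Without a filter the limma adjusted p was 0.0578 for St3gal5 and 0.297 for B3galt2. Galnt17 had 7.43, 10.8 and 29.1 in the wild-type libraries and no read in any knockout library, at least 5.19-fold lower in the knockout from a floor of 3 reads per library (limma adjusted p without a filter 0.00231).

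Other members lay just outside or inside the filter. Just outside it were Fut1, which makes the H antigen in other tissues, with 13.8, 11.7 and 5.46 normalized reads in wild-type and 5.24, 8.28 and 8.59 in knockout libraries, and Galnt18 with 5.31, 1.96 and 7.29 normalized reads in wild-type and 9.43, 9.31 and 9.55 in knockout libraries. St6galnac1, the sialyl-Tn synthase, was also outside with 18.0, 4.89 and 14.6 normalized reads in wild-type and 2.10, 8.28 and 5.73 in knockout libraries. Just inside were St8sia4, above, and B3gnt4 with 18.0, 15.6 and 14.6 normalized reads in wild-type and 11.5, 11.4 and 18.1 in knockout libraries. The leukocyte fucosyltransferase gene Fut7 had 2 reads in the knockout libraries and 0 in the wild type. B4galt2 and St3gal2 had 5 and 12 reads in the wild-type and 12 and 41 in the knockout libraries. Fut10, Galnt9, Galnt13, Galnt15, Gcnt7, St6galnac3, St8sia2, St8sia3, St8sia3os and St8sia6 had at most 6 reads in either group.

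**Figure D4:**
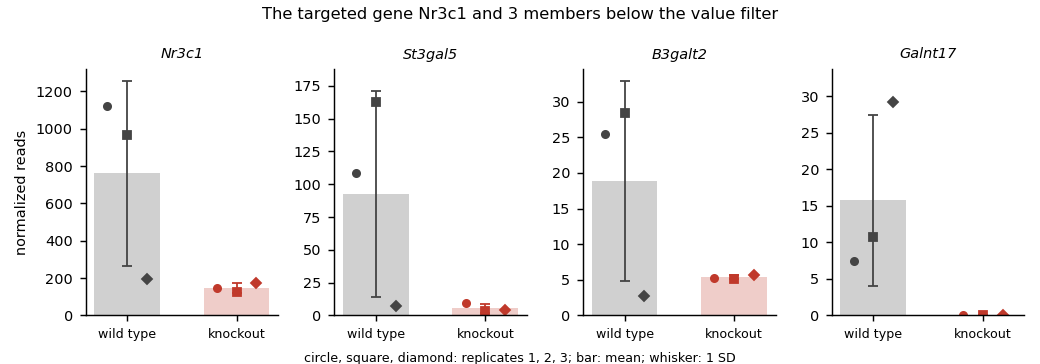
Normalized reads in each library for Nr3c1, the targeted gene, and for the members St3gal5, B3galt2 and Galnt17, which did not pass the value filter. Symbols are replicates 1 (circle), 2 (square) and 3 (diamond), bars are means and whiskers 1 SD, and axes start at 0. The diamond of the wild-type group lies near the knockout libraries for Nr3c1, St3gal5 and B3galt2 but is the highest value for Galnt17.

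Without the library labelled wild type replicate 3, 16 members were higher and 11 lower, against 25.1% of all tested genes called, and 26 of the 29 calls were kept. That library was the wild-type library nearest to the knockout in 22 of the 29 called members (75.9%) and in 65.3% of all called genes. Knockout replicate 1, whose immune, stromal and stratified epithelial marker sums were the highest, was the farthest from the wild type in 17 of the 29 (58.6%), against 68.1% of all called genes. Leaving out wild type replicate 1 left 12 raised and 5 lowered members, and leaving out wild type replicate 2 left 11 and 7. The 16 members that kept the call under every alternative in which they were tested were B3galt5, B3gnt3, B4galt1, B4galt6, Fut2, Fut8, Galnt1, Galnt3, Gcnt1, Gcnt2 and St8sia1 among the raised and B3gnt6, B4galnt1, B4galnt2, St6gal1 and St6galnac2 among the lowered. St8sia1 was not tested with the filter at 50, which it did not pass.

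Genes of the same pathway outside the prefixes were read from 7 lists with 71 tested genes, of which 14 rose and 13 fell (38.0% called, against 30.5% of all tested genes). Of 5 genes for core 1 and other O-GalNAc enzymes 2 rose and 1 fell (60.0% called). C1galt1, the core 1 synthase gene, rose from 814 ± 82.7 to 1313 ± 150.0 (log2 change 0.69 ± 0.13 SE, adjusted p = 0.00726), and Abo, the blood group A and B transferase, had 56.3, 29.3 and 51.0 normalized reads in wild-type and 182, 176 and 96.4 in knockout libraries (log2 change 1.71 ± 0.33 SE, adjusted p = 0.00902). A4gnt, which makes the alpha-GlcNAc cap known from gastric gland mucin, had 273, 398 and 131 normalized reads in wild-type and 14.7, 44.5 and 38.2 in knockout libraries (log2 change -3.00 ± 0.51 SE, adjusted p = 0.00543). The groups did not overlap in any of the 3.

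Among the mucin genes that carry these glycans 2 of 5 tested rose and 1 fell (60.0% called, against 30.5% of all tested genes). The membrane mucin Muc13 had 23279, 27229 and 30696 normalized reads in wild-type and 65130.2, 60511 and 70628 in knockout libraries (log2 change 1.28 ± 0.20 SE, adjusted p = 0.00407) and Muc1 4.25, 23.5 and 34.6 normalized reads in wild-type and 116, 69.3 and 109 in knockout libraries (log2 change 2.54 ± 0.66 SE, adjusted p = 0.0246). The secreted mucin Muc2 had 33407, 33551 and 18099.5 normalized reads in wild-type and 8183, 9934 and 10868 in knockout libraries (log2 change -1.51 ± 0.26 SE, adjusted p = 0.00616), with the library labelled wild type replicate 3 the lowest of its group. The call of Muc1 was lost without wild type replicate 2 and without either of knockout replicates 1 and 3 (adjusted p = 0.0502, 0.051 and 0.0707, range 0.000372 to 0.0707). Muc4 and Muc20 did not pass, and Muc5ac, Muc5b, Muc6 and Muc15 were too low to be tested.

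Of 7 tested glycan sulfotransferase genes 1 rose and 2 fell (42.9% called, against 30.5% of all tested genes). Gal3st1, which sulfates galactose of glycolipids, fell from 539 ± 45.3 to 266 ± 72.0 (log2 change -1.06 ± 0.21 SE, adjusted p = 0.00963), and Gal3st2c, a close paralog of Gal3st2 with which reads may be shared, fell from 304 ± 117 to 103 ± 38.3 (log2 change -1.55 ± 0.39 SE, adjusted p = 0.0229). Chst4, which sulfates GlcNAc, went from 335 ± 14.3 to 706 ± 279.9 (log2 change 0.997 ± 0.26 SE, adjusted p = 0.0244). The call of Gal3st2c was lost without wild type replicate 1 or 2 (0.0876 and 0.0845, range 0.000326 to 0.0876). That of Chst4 was lost without any 1 of the wild-type libraries or knockout replicate 3 (0.0781, 0.0688, 0.0619 and 0.0608, range 0.000915 to 0.0781).

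Sugar supply was mixed. Of 19 genes of nucleotide sugar synthesis 4 rose and 3 fell (36.8% called). Of 12 genes of the Slc35 family of nucleotide sugar transporters 2 rose and 2 fell (33.3%). Both shares were near that of all tested genes (30.5%). Some genes of GDP-fucose supply changed and others did not pass. Gmds, of the main route from GDP-mannose, rose from 4111 ± 197 to 6413 ± 176 (log2 change 0.64 ± 0.10 SE, adjusted p = 0.00476). Gfus, of the same route, was at 1306 ± 92.7 and 1289 ± 106 (adjusted p = 0.907). Fpgt, of the salvage route, fell from 462 ± 103 to 217 ± 40.7 (log2 change -1.08 ± 0.21 SE, adjusted p = 0.00839). Fcsk, also of the salvage route, was at 570 ± 12.5 and 494 ± 60.0 (adjusted p = 0.208). Slc35c1, the Golgi transporter of GDP-fucose, rose from 2498 ± 241 to 3393 ± 87.2 (log2 change 0.45 ± 0.11 SE, adjusted p = 0.0197). Galk1, the galactokinase gene, fell from 302 ± 101 to 150.5 ± 9.36 (log2 change -0.95 ± 0.23 SE, adjusted p = 0.0206), Slc35d1 fell from 715 ± 160.3 to 408 ± 32.4 (log2 change -0.79 ± 0.17 SE, adjusted p = 0.0137) and Slc35a4 rose from 860.2 ± 41.8 to 1380.3 ± 5.72 (log2 change 0.68 ± 0.09 SE, adjusted p = 0.00265). Without wild type replicate 1 the adjusted p was 0.089 for Slc35c1 (range 0.00352 to 0.089), 0.0566 for Slc35d1 (range 0.00077 to 0.0566) and 0.0557 for Galk1 (range 0.00153 to 0.0646). It was 0.0646 for Galk1 without wild type replicate 2. Slc35c1 also lost its call when the library labelled wild type replicate 3 was left out (0.0578).

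Of 11 tested genes of glycan removal and sialic acid O-acetylation 2 rose and 4 fell (54.5% called, against 30.5% of all tested genes). Siae, an esterase of O-acetylated sialic acid, fell from 269 ± 19.0 to 133 ± 32.8 (log2 change -1.04 ± 0.19 SE, adjusted p = 0.00785), and the lysosomal galactosidase gene Gla fell from 295 ± 56.9 to 171 ± 13.5 (log2 change -0.77 ± 0.17 SE, adjusted p = 0.0133). The call of Gla was lost without wild type replicate 1 or 2 (0.0533 and 0.0507, range 0.00149 to 0.0533). In the list of N-glycan branching and trimming 1 of 12 genes rose and none fell (8.33% called). That gene was Mgat2, from 378 ± 4.64 to 595 ± 122 (log2 change 0.63 ± 0.16 SE, adjusted p = 0.0209), and its call was lost without any 1 of the wild-type libraries (0.0717, 0.0719 and 0.0508, range 0.00403 to 0.0719). The median size of the change regardless of sign was 0.23 in this list, 0.65 in the 53 glycosyltransferase genes and 0.38 in all tested genes. In the other pathway lists it ranged from 0.25 for nucleotide sugar synthesis to 1.28 for the mucin genes.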

How the data were processed

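Each value in the deposited table is a normalized signal: the authors scaled the reads of a gene by a size factor of its library. The submitters' processing notes name FastQC, TopHat, DESeq2 and mm10, without versions. For the read counter and the gene annotation, nothing is given in the sources used here. Libraries were non-stranded, per the labels' protocols. Values were whole multiples of a library's step within 0.001 (100% of values), so reads could be recovered.

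Entrez numbers were matched to symbols and coordinates in RefSeq's table of GRCm38.p6 (23666 of 23725 rows). Exon lengths came from GENCODE for GRCm38. limma 3.58.1 (R 4.3.3, intensity-dependent prior) was fitted to log2(value + 1) of the 12837 genes that reached 10 in 3 of 6 libraries. P-values were adjusted by Benjamini-Hochberg over all of them, with a threshold of 0.05. The script was tested on simulated data. Alternatives were pseudocounts of 0.5 and 5, no filter, a filter at 50, TMM scaling, quantile normalization, robust empirical Bayes, library weights, edgeR 4.0.16 and DESeq2 1.42.0 on recovered reads, and leaving out each library.

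Members, lists, tests and motifs were chosen with earlier results of these data known. Values in each library were given for called members with at least a 2-fold change, means or values in each library for the other called members, and up to 3 called genes per pathway list were named by smallest adjusted p, except 1 gene that is not reported here. Other members were chosen after their values were seen. Replicate numbers were assigned in accession order. No batch is named in the labels.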

Additional observations from a re-analysis of the deposited data

How the results depend on the processing

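With 1 library left out the raised members numbered 11 to 19 (17 with all libraries) and the lowered 5 to 13 (12 with all). The raised pathway genes numbered 6 to 13 (14 with all) and the lowered 6 to 15 (13 with all). The lowest counts came without wild type replicate 1 or 2, and the cause was not tested. The other 10 alternatives gave 14 to 19 raised and 12 to 14 lowered members, and 12 to 16 raised and 13 to 14 lowered pathway genes. None of the 29 called members changed direction in any of the 16 alternatives in which it was tested, and 16 kept the call in all of those. St8sia1 was not tested with the filter at 50, where the 28 others kept the call. Of the 24 members not called, 15 were followed through the alternatives and 3 of these changed sign. With 1 library left out the log2 change ranged from -0.45 to 0.095 for B4galnt3 (above 0 without knockout replicate 1), from -0.13 to 0.35 for Fut4 (below 0 without knockout replicate 2, -0.11, or knockout replicate 3) and from -0.11 to 0.14 for Galnt12 (below 0 without the library labelled wild type replicate 3 or knockout replicate 3, -0.014). Quantile normalization gave -0.029 for Galnt12. No paired analysis was possible because the labels tie no knockout library to a wild-type library. Low counts limit St8sia1, St8sia4, St8sia5, Fut9 and the members under the filter.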

Other observations

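Single libraries stood apart at some members in ways the group means hide. Fut9 was at 2.10 normalized reads in knockout replicate 1 and between 29.3 and 41.0 in the 5 other libraries. St8sia5 was at 231 and 74.5 in knockout replicates 2 and 3, while knockout replicate 1, at 7.34, lay within the wild-type range of 3.91 to 18.2. St3gal5 was at 7.29 in the library labelled wild type replicate 3 and at 108.3 and 162 in the other 2 wild-type libraries, and Nr3c1 in the same libraries was at 197, 1119.8 and 967. These values were chosen after they were seen and have no test.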
